A study of Sus scrofa with 599 samples.

Results

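Small topologically associating domains (TADs), here those of at most 200 kb from start to end, were chosen by their called width alone from the TAD calls of each of 240 in situ Hi-C samples of pig adipose tissue (AT). The rule selected 260341 of 1199917 TADs, or 21.7%. The pigs were female Bama miniature pigs, 2 years old. NC pigs received the normal control diet. WG pigs gained weight over 22 weeks of high-fat feeding. WL pigs had gone through the same weight gain and then through 12 weeks at 10% of the normal caloric intake. Of the 4 depots, GOM (greater omentum), MAD (mesenteric adipose) and RAD (retroperitoneal adipose) are visceral, and ULB (upper layer of backfat) is subcutaneous. In the order GOM, MAD, RAD and ULB, the Hi-C samples numbered 9, 12, 12 and 5 in NC, 46, 37, 40 and 39 in WG, and 10 in each depot of WL. RNA-seq came from 236 samples of the same 12 groups. RNA came from total tissue, so its values mix the cell types of a depot, whereas for Hi-C the fixed tissue was spun and the floating layer with adipocytes was lysed, so the assays do not sample the same mixture of cells.

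A TAD is a stretch of chromatin whose parts contact each other more often than they contact the neighbouring stretches. Its ends, the boundaries, often hold binding sites of CTCF, a zinc-finger protein that halts the cohesin complex as it extrudes chromatin loops, and the direction of the CTCF motif decides from which side it does so. Independently of TADs, chromatin is divided into an open, gene-rich compartment A and a more closed compartment B. Small domains are known mainly from dense, transcribed chromatin, whereas gene-poor chromatin forms broad ones.

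TADs were called by the authors on 20-kb bins and those under 100 kb were removed, so a small TAD spanned 5 to 10 bins. The widths that qualified held 27156 TADs at 100 kb, 37035 at 120 kb, 44106 at 140 kb, 48212 at 160 kb, 49860 at 180 kb and 53972 at 200 kb. The next width, 220 kb, which the rule left out, held 54686. The limit thus lies within a continuous distribution of widths. The calls carry no score or contact count, so the depth behind a single TAD is not known from them.

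To show where small TADs ended, 30 bases around a match to the core of the CTCF motif are printed for small TADs that the results turn on. They were read from the Sscrofa11.1 reference in the bin on each side of the TAD end. The capitals mark the match to the motif letters CCA NN AGG N GGCA in 1 run, where N is any base, which was searched on both strands and is given in its own direction, followed by the strand of the reference. The first 4 belong to small TADs found in nearly all samples, the next 4 to small TADs whose frequency differed between depots, and the last 2 to the TADs of LEP and STAT5A.
EVL and YY1, shared end, chr7:121082216-121082245, minus strand: ttgtgcccCCACCAGGGGGCAccctttctt
YY1, right end, chr7:121249615-121249644, plus strand: cctacttgCCAGTAGGGGGCAcactaagac
ACLY, right end, chr12:20972019-20972048, plus strand: cactgatgCCACAAGGGGGCAccacccagg
COL9A3, right end, chr17:62238481-62238510, minus strand: ggatggacCCAGCAGGGGGCAgtcacaagg
CTCF and ENKD1, shared end, chr6:28289946-28289975, minus strand: caagaggaCCAGGAGGCGGCAggcaagggg
LCP1, left end, chr11:21043792-21043821, plus strand: tccattgcCCAGCAGGTGGCAgcatcgcct
LCP1 and CPB2, shared end, chr11:21212697-21212726, minus strand: gcaagagcCCAGCAGGGGGCAgatgtgctg
LCP1 and CPB2, shared end, chr11:21222736-21222765, plus strand: gtagcaaaCCACGAGGGGGCAgtatggagc
LEP, right end, chr18:20232708-20232737, minus strand: ggggctctCCACAAGGTGGCAgcacacatg
STAT5A, left end, chr12:20473842-20473871, minus strand: cccagagaCCAGCAGGTGGCAccatcccac
Such a match is a description of the letters and not evidence of a bound site. Of all pairs of neighbouring bins, 19.2% held a match.

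In each sample, 576 to 1455 small TADs were called (median 1062) among 4485 to 5689 TADs in all. One library stood apart: WL GOM replicate 9 had 576 small TADs, and the next lowest sample of its group had 912. Comparisons of the number of small TADs that rest on that group are given with and without it. In RNA-seq, the estimated counts on protein-coding genes (PCGs) were 3337098 to 22939420 per sample. In 40 RNA libraries, 17 of them among the 38 of NC, PCGs took less than 88% of the expression summed as TPM, which scales each library to the same total. All 6 adipocyte markers were measured in every depot, with summed levels from 3807 to 34105 TPM over all samples.

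The first question was by how much the number of small TADs differed between depots. When this part was chosen, it was known that backfat had more TADs when all sizes were counted together. The direction of the ULB excess was thus not an open question. All TADs numbered 4829 in GOM and 5577 in ULB of NC on average, and 4869 and 5295 in WG. In ULB of NC pigs, the 5 samples had 1263, 1342, 1354, 1425 and 1448 small TADs (1366 ± 73.4, SD). NC GOM had 833 to 1128 (median 1028, 1027 ± 92.8, n = 9) and NC MAD 921 to 1040 (median 994, 989 ± 39.5, n = 12). Neither overlapped NC ULB. NC RAD had 1041 to 1419 (median 1196.5, 1194 ± 115, n = 12) and overlapped it. The excess of ULB was 33.1% over GOM (adjusted p = 0.00236), 38.1% over MAD (adjusted p = 0.0012) and 14.4% over RAD (adjusted p = 0.0123), by exact two-sided Wilcoxon rank-sum tests with Benjamini-Hochberg adjustment over the 26 comparisons of depots and diets. These tests took the samples as unpaired. When samples of the same replicate number were paired, ULB was higher in 4 of 4, 5 of 5 and 5 of 5 pairs, which cannot pass (exact signed-rank tests, smallest possible p = 0.125, 0.0625 and 0.0625).

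In WG, ULB samples held 1004 to 1455 small TADs (median 1200, 1218 ± 122, n = 39). The visceral depots held 871 to 1206 in GOM (median 1030, 1031 ± 95.4, n = 46), 797 to 1263 in MAD (median 1021, 1038 ± 85.3, n = 37) and 851 to 1289 in RAD (median 1076, 1078 ± 83.7, n = 40). The ranges overlapped in every pair, while the means of ULB were higher by 18.2%, 17.3% and 12.9% (adjusted p = 7.95e-10, 1.05e-09 and 1.52e-06). After weight loss, ULB held 952 to 1400 (median 1193.5, 1202 ± 149, n = 10), against 872 to 1043 in MAD (median 949.5, 953 ± 47.6, n = 10) and 895 to 1035 in RAD (median 953.5, 952 ± 49.6, n = 10). The differences of 26.04% and 26.2% passed the test (exact rank-sum, adjusted p = 0.000891 and 0.00156). WL GOM, with 576 to 1253 small TADs (median 1113.5, 1054.5 ± 196, n = 10), was 147 below ULB, a difference that did not pass (adjusted p = 0.16), and without replicate 9 it was 94.0 below (adjusted p = 0.249). These tests share the ULB samples of each diet.

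**Figure D1:**
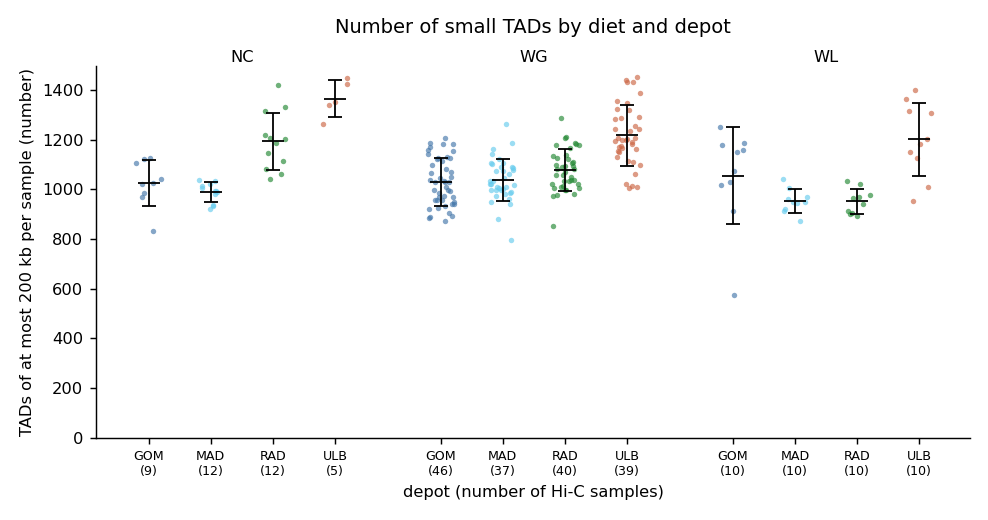
Number of TADs of at most 200 kb in each Hi-C sample (vertical axis) by depot and diet (horizontal axis, with the number of samples), 1 point per sample with the group mean. ULB has the highest mean in each diet, 1366 in NC, 1218 in WG and 1202 in WL, and the single low point of WL GOM is 576.

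Among the visceral depots, RAD had more small TADs than MAD in NC, by 205, with no overlap (exact rank-sum, adjusted p = 4.81e-06), and than GOM by 167.6 (adjusted p = 0.00391). In WG these gaps were 39.9 (adjusted p = 0.0478) and 47.6 (adjusted p = 0.0271). In WL, RAD and MAD differed by 1 TAD on average, and GOM lay 101.1 above MAD and 102.1 above RAD (adjusted p = 0.0416 and 0.0377). Without WL GOM replicate 9, the latter gaps were 154 and 155. Of these calls, only that of RAD over MAD in NC held when samples of the same number were paired. The paired differences were 150.3 for RAD over GOM in NC (exact signed-rank, adjusted p = 0.0502), 42.4 and 38.8 for RAD over GOM and MAD in WG (adjusted p = 0.0938 and 0.0918), and 101.1 and 102.1 for GOM over MAD and RAD in WL (adjusted p = 0.157 and 0.116). ULB stayed above each visceral depot in WG and above MAD and RAD in WL (largest adjusted p = 0.0117).

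Between diets, the number of small TADs differed in different directions in different depots when no term for depth was used. As a share of all TADs, the rise in MAD from NC to WG was 0.541 points (exact rank-sum, adjusted p = 0.126). From NC to WG the number fell by 116 in RAD (adjusted p = 0.00236) and by 149 in ULB (exact rank-sum, adjusted p = 0.0182), rose by 49.2 in MAD (adjusted p = 0.0416), and differed by 3.81 in GOM (adjusted p = 0.969). The ULB value rests on 5 NC samples, and without replicate 5 it no longer passed. From WG to WL it fell by 84.9 in MAD (adjusted p = 0.00156) and by 126 in RAD (adjusted p = 2.61e-05), while the differences were 23.9 in GOM (adjusted p = 0.203; 77.1 without replicate 9, adjusted p = 0.0596) and -16.1 in ULB (adjusted p = 0.847). Of 12 differences between depots in the effect of diet, 5 passed a permutation test adjusted over the 12. The response to weight gain was lower by 165 in RAD than in MAD (adjusted p = 0.00048) and by 198 in ULB than in MAD (adjusted p = 0.00444), and the response to weight loss was lower by 150 in RAD than in GOM (adjusted p = 0.0143). Without WL GOM replicate 9 the latter was 203 (adjusted p = 0.00012), and the response in MAD was then lower than in GOM by 162 (permutation test, adjusted p = 0.00168), beside 109 with it (adjusted p = 0.0709).

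The number of small TADs moved with sequencing depth. Within groups, its correlation with the number of valid contacts that the study lists per sample was positive in all 11 groups of more than 5 samples (Pearson's r 0.183 to 0.854, Spearman's rho 0.168 to 0.830, n 9 to 46). The highest Pearson value is that of WL GOM, where Spearman's rho was 0.212. Without replicate 9, r was 0.116 and rho -0.0833 there, and over the other groups r reached 0.839 (WL ULB). With valid contacts as a term, of the 5 diet differences only the rise in MAD from NC to WG stayed past the threshold, at 95.4 (adjusted p = 7.43e-05). The difference in GOM from WG to WL, 92.9, then passed (adjusted p = 0.0137), and the ULB excess over GOM in WL, 108, then passed. The share of a sample's TADs that were small varied less than the number. It was 24.5% ± 0.80 in NC ULB against 20.7% ± 0.50 to 22.9% ± 1.22 in the visceral depots of NC, 22.96% ± 1.55 in WG ULB against 21.1% ± 1.27 to 21.7% ± 1.18, and 22.7% ± 2.14 in WL ULB against 19.7% ± 0.77 to 21.1% ± 3.18, the last of which is WL GOM (21.99% ± 1.41 without replicate 9). By size, WG ULB exceeded WG GOM by 18.2% in small TADs, by 13.01% in TADs of 220 to 400 kb and by 9.76% in those of 420 to 600 kb, and was 21.8% lower in TADs of 1 Mb or more.

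Small TADs were unevenly spread over the 18 autosomes. Chromosome 12 held 2.10 ± 0.23 small TADs per Mb (n = 240 samples), chromosome 18 1.36 ± 0.29, chromosome 17 1.31 ± 0.19 and chromosome 10 1.03 ± 0.19. The lowest densities, 0.108 to 0.111 per Mb, were on chromosomes 8, 1 and 13. On chromosome 12, 49.2% of all TADs were small, against 7.20% on chromosome 8. Chromosomes 5, 7, 10, 12, 17 and 18 together held 49.3% of small TADs on 21.05% of the bins. Over the 18 chromosomes, the density correlated with length (Spearman's rho -0.81, Pearson's r -0.72), with GC content (0.74 and 0.79) and with gene density (0.41 and 0.59), and less with the share of bins in compartment A (0.20 and 0.30). These are descriptions over 18 chromosomes that share every library. Within chromosomes, 13.98% ± 1.38 of the length in small TADs lay in the last 5 Mb at either end, where 7.33% ± 0.14 of the length in larger TADs and 7.93% of all bins lay. The share was higher for small TADs in 240 of 240 samples.

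**Figure D2:**
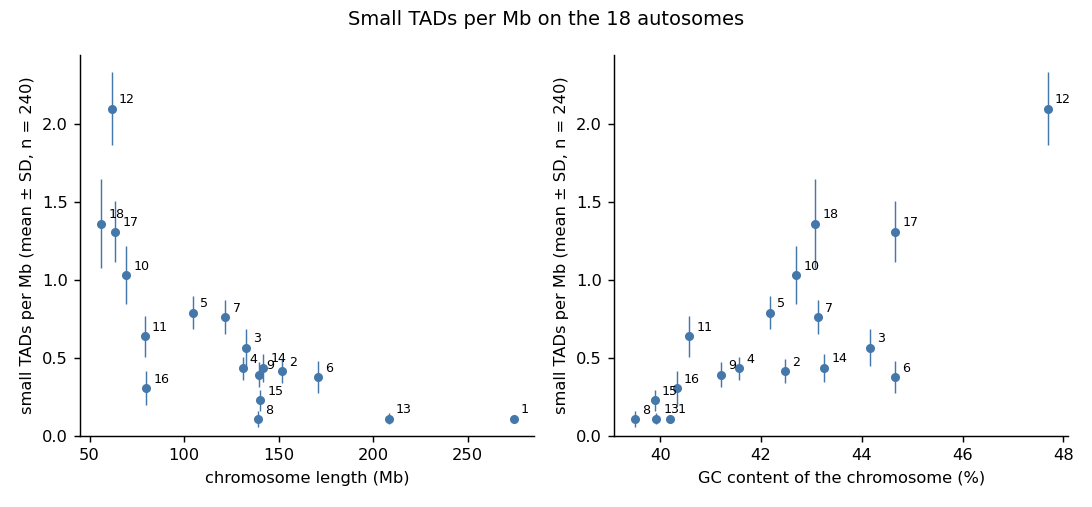
Small TADs per Mb (vertical axes, mean ± SD over 240 samples) on each of the 18 autosomes against features of the chromosome (horizontal axes, with units). Chromosome 12, at 2.10 per Mb, is above all others, and the long chromosomes 1, 8 and 13 are at 0.11.

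The excess of ULB was spread over the genome. In WG, its mean number of small TADs was the highest of the 4 depots on 18 of 18 chromosomes. Against the visceral samples together, it was higher by 50.8% on chromosome 13, 50.4% on chromosome 8 and 41.9% on chromosome 6, where ULB had 83.5 and the visceral samples 58.8 per sample. On chromosome 12, the densest, the means were 132 and 129, a difference of 2.33% that did not pass (adjusted p = 0.218). The other 17 chromosomes passed (exact rank-sum tests), the largest adjusted p being 0.0497 on chromosome 11. These tests took the visceral samples as independent. The study took 4 depots per pig, so a pig may enter the visceral side more than once. The p-values therefore do not measure a spread over separate pigs.

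Small TADs lay side by side. On average 56.1% ± 2.72 of the small TADs of a sample adjoined another small TAD, against 25.3% ± 1.90 of larger TADs that adjoined a small one. Together they covered 92.5 to 227 Mb per sample (median 166.5 Mb).

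The next question was how often a small TAD recurred at the same place. By exact ends, there were 48395 different small intervals, of which 22306 (46.1%) were found in 1 sample. When both ends could shift by 1 bin, 19963 positions remained, 21.2% of them in 1 sample and 81.9% in under 10% of samples. For larger TADs these shares were 28.97% and 88.7%. At the other extreme, 175 small positions (0.877%) recurred in at least 70% of samples and 57 in at least 90%, against 0.509% and 0.147% of larger positions. Because a shift of 1 bin at each end lets a matching TAD reach 240 kb, recurrence was also counted with matching TADs of at most 200 kb alone, which left 143 and 46 positions. A small TAD recurred in another sample of its own group in 34.3% ± 1.98 of cases, in a sample of the same depot on another diet in 33.2% ± 1.53 and in a sample of another depot on the same diet in 32.5% ± 2.42.

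Only 2 positions held a TAD of at most 200 kb in all 240 samples. The first, chr17:62060001-62240000 (180 kb), holds the starts of COL9A3, a chain of collagen IX, TCFL5, a transcription factor, GID8, a subunit of a ubiquitin ligase, and SLC17A9, the vesicular nucleotide transporter. Its mean A-B index was 4.89 to 5.39 in the 12 groups. The other, chr12:19900001-20040000 (140 kb), holds RUNDC1, PTGES3L, AARSD1, AOC2, an amine oxidase, and PSME3, a proteasome activator, at an index of 4.26 to 5.26. The A-B index is a score without unit, computed by the authors per 20-kb bin, and positive values stand for compartment A.

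Further positions came close. On chromosome 7, a TAD of EVL, an actin regulator, at chr7:120900001-121100000 was present in 238 samples (230 at up to 200 kb), and its neighbour at chr7:121100001-121240000 with YY1, a zinc-finger factor that bridges chromatin loops, DEGS2, SLC25A47 and WDR25 was present in 238, all at up to 200 kb. The end that they share and the right end of the YY1 domain held the first and second of the printed sequences, on opposite strands. WAC, a regulator of histone ubiquitination, lay in chr10:39880001-40020000 in 238 samples. MAPK11 and MAPK12, stress-activated kinases, and HDAC10, a deacetylase, lay in chr5:360001-500000 in 237. On chromosome 12, adjoining positions at 20480001-20580000 (STAT5A), 20580001-20780000 (KAT2A, a histone acetyltransferase, RAB5C and HCRT) and 20780001-20980000 (ACLY, which makes cytosolic acetyl-CoA for fatty acid synthesis, JUP, FKBP10, HAP1, GAST and EIF1) were present in 234, 238 and 238 samples, of which 234, 172 and 235 were at up to 200 kb. Not all recurrent positions were in strong compartment A. The position of SPAG9, NME1 and NME2 at chr12:27240001-27440000, in 240 samples (210 at up to 200 kb), had a mean index of -0.11 to 0.66, and chr10:10080001-10240000, in 237 samples and with no placed gene, had -1.05 to 1.00.

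Expression of some genes in these recurrent positions differed between groups that shared the TAD. In bulk tissue, fewer cells of a type and less RNA per cell cannot be told apart. ACLY fell from WG to WL by 2.61 on the log2 scale in GOM (SE 0.40, edgeR adjusted p = 1.40e-05), 2.76 in MAD (SE 0.47, adjusted p = 3.01e-05), 2.02 in RAD (SE 0.35, adjusted p = 8.07e-05) and 1.99 in ULB (SE 0.30, adjusted p = 3.05e-06). SLC17A9 rose from NC to WG in all 4 depots, by 1.47 (GOM), 1.77 (MAD), 1.69 (RAD) and 1.14 (ULB) on the log2 scale (SE 0.25 to 0.41, largest adjusted p = 0.0233). MAPK11 rose by 1.62 (GOM), 0.93 (MAD) and 1.15 (RAD) from NC to WG (largest adjusted p = 0.0439), and the difference in ULB was 0.51 (SE 0.40, adjusted p = 0.595). NT5C3B was higher in ULB of WG than in GOM by 1.12 (SE 0.10), than in MAD by 1.20 and than in RAD by 1.00, on the log2 scale (largest adjusted p = 8.93e-14).

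Genes whose start lay in bins that were in a small TAD in at least 70% of samples of both compared groups were called differentially expressed about as often as genes in general. A DEG here passed an adjusted p of 0.05 in edgeR and a fold change of 1.5 in either direction. Between GOM and ULB in WG, 58 of 360 such genes were DEGs (16.1%), beside 17.9% of all tested PCGs. Between MAD and ULB it was 13.1% beside 14.4%, and between RAD and ULB 7.91% beside 9.27%. Between visceral depots it was 4.71% beside 6.27% for GOM and MAD, 11.5% beside 11.2% for GOM and RAD, and 3.46% beside 5.4% for MAD and RAD. From NC to WG it was 26.4% of 345 genes beside 26.7% in GOM, 10.9% beside 10.7% in MAD, 17.5% beside 16.7% in RAD and 1.28% beside 2.38% in ULB. From NC to WG in GOM, 65 recurrent genes rose and 26 fell, while 1741 (12.2%) of all genes rose and 2071 (14.5%) fell, with a median log2 fold change of 0.14 against 0.00. In RAD, 43 rose and 21 fell, beside 963 (7.1%) and 1303 (9.6%) of all genes. With a term for the RNA libraries low in PCGs, 40% of the 345 genes were DEGs in GOM, of which 36 fell and the others rose, 20 rose and 7 fell in RAD, and in ULB 1 gene rose, where 4 had risen and 2 fallen without the term. With that term, 34.7% of all genes were called in GOM, 6.43% in RAD beside 7.38% of recurrent genes, and 0.434% in ULB beside 0.213%. From WG to WL, 5.30% were called in GOM beside 5.26% of all, 17.04% in MAD beside 17.4%, 4.75% in RAD beside 6.37% and 7.25% in ULB beside 8.12%.

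Between depots, single positions were compared by Fisher's exact test over TADs of all sizes, and a position was called when its adjusted p was below 0.05 and it was present in at least 70% of one group and under 30% of the other. In WG, 17 of 3759 small positions tested were called between GOM and ULB, 16 of them more frequent in ULB, where 0.371% of positions of all sizes were called and 0.257% were called as more frequent in ULB. Between MAD and ULB 10 of 3821 were called, 9 of them up in ULB (background 0.26% in either direction and 0.189% up in ULB), and between RAD and ULB 6 of 3949, with 5 up in ULB (background 0.113% and 0.0735%). GOM and RAD differed at 8 (background 0.179%), GOM and MAD at 2 (background 0.103%), and MAD and RAD at 0, with 215 below an unadjusted p of 0.05. With matching TADs of at most 200 kb alone, the counts were 14, 7, 5, 6 and 1. In NC and WL, 0 small positions were called between depots (background 0% to 0.00697%), where group sizes were 5 to 12 and 22 to 230 positions per comparison had an unadjusted p below 0.05.

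The largest change was a split on chromosome 6. In WG, chr6:28140001-28280000, with RIPOR1, CTCF itself and CARMIL2, was a TAD of its own in 6 of 46 GOM, 18 of 37 MAD, 31 of 40 RAD and 37 of 39 ULB samples (GOM against ULB, Fisher's exact test, adjusted p = 1.35e-11). Its neighbour at chr6:28280001-28440000, with ACD, PARD6A, ENKD1, GFOD2, RANBP10 and TSNAXIP1, had the same counts in GOM and ULB. In GOM the median TAD over the place was 280 kb, and in ULB it was 140 kb. The counts were 1 of 9, 4 of 12, 6 of 12 and 5 of 5 in NC, in the same order of depots. In WL they were 3, 8, 7 and 9 of 10, with GOM again lowest and ULB highest but MAD above RAD. Both places were in strong compartment A in every group, at an index of 5.63 to 7.11. The boundary that divides them held the printed sequence shared by CTCF and ENKD1. CTCF differed between GOM and ULB by -0.06 on the log2 scale (SE 0.08, edgeR adjusted p = 0.60). ENKD1 was lower in ULB by 0.50 (SE 0.13, adjusted p = 0.00105), below the fold limit.

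A similar split lay on chromosome 11, at chr11:21040001-21220000 with LRRC63 and LCP1, an actin-bundling protein of leukocytes, and chr11:21220001-21400000 with CPB2, a carboxypeptidase, and ZC3H13, a part of the RNA methylation machinery. The former was present in 2 of 46 GOM, 21 of 37 MAD, 26 of 40 RAD and 30 of 39 ULB samples of WG, and the latter in 3 of 46 GOM and 29 of 39 ULB samples (adjusted p = 1.65e-09 and 3.97e-08). In NC the former was in 22.2%, 33.3%, 75.0% and 100% of the groups in the same order, but in WL in 10%, 30%, 0% and 40%. LCP1 differed by 0.14 between GOM and ULB (SE 0.14, edgeR adjusted p = 0.43). At the shared end, matches on both strands were found, as printed above.

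PTDSS1, a phosphatidylserine synthase, and MTERF3, a mitochondrial transcription regulator, lay in chr4:40320001-40440000, a TAD in 7 of 46 GOM and 35 of 39 ULB samples of WG (adjusted p = 2.44e-09) and in 3 of 10 ULB samples of WL. PTDSS1 and MTERF3 differed by -0.05 and 0.09 on the log2 scale (adjusted p = 0.677 and 0.362). AGK, a mitochondrial lipid kinase, at chr18:8220001-8400000, was in a called TAD in 28 of 39 ULB samples against 4 of 46, 6 of 37 and 8 of 40 in GOM, MAD and RAD. At up to 200 kb, the AGK counts were 25 in ULB and 4, 5 and 8 in GOM, MAD and RAD. A position at chr2:25440001-25600000, with no placed gene, was called against all 3 visceral depots. It was present in 28 of 39 ULB against 5, 2 and 6 visceral samples, with a median TAD over the place of 160 kb in ULB and 1060, 1040 and 1020 kb in GOM, MAD and RAD, at an index of 2.07 to 2.45 in all 4. At chr17:56800001-57140000, adjoining positions with MC3R, a melanocortin receptor, and with FAM210B, CSTF1 and CASS4 were both in 28 of 39 ULB and in 6 to 9 samples of each visceral depot. At up to 200 kb, the MC3R position stayed at 28 ULB samples. The position of FAM210B, CSTF1 and CASS4 was then in 23 ULB, 8 GOM, 5 MAD and 6 RAD samples.

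Fewer positions were less frequent in ULB. LOXL2, which cross-links collagen and elastin, lay in chr14:7400001-7600000, a TAD in 37 of 46 GOM and 31 of 37 MAD but 11 of 39 ULB samples (adjusted p = 0.000228 and 0.000296), and its expression was higher in ULB than in GOM by 0.85 (SE 0.08, edgeR adjusted p = 5.05e-15). With matching TADs of at most 200 kb alone, the LOXL2 position was in 31 of 46 GOM, 25 of 37 MAD and 9 of 39 ULB samples. It was then no longer called. COL21A1, a fibril-associated collagen, was in a TAD more frequent in ULB (34 of 39 against 12 of 46 in GOM) and lower in expression there by 0.90 (SE 0.11, adjusted p = 6.33e-12). For COL21A1, the counts at up to 200 kb were 28 of 39 and 7 of 46. The bin of its start was also in a small TAD more often in ULB than in MAD (28 of 39 against 7 of 37), where its expression differed by 0.09 (SE 0.12, edgeR adjusted p = 0.606). TMEM98 and MYO1D, in a TAD in 31 of 39 ULB and 12 of 46 GOM samples, were lower in ULB by 2.54 (SE 0.16, adjusted p = 4.30e-25) and 1.03 (adjusted p = 2.47e-06). Of the 20 genes tested in called small positions between GOM and ULB, 2 rose and 3 fell, beside the 17.9% of all PCGs that were DEGs.

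**Figure D3:**
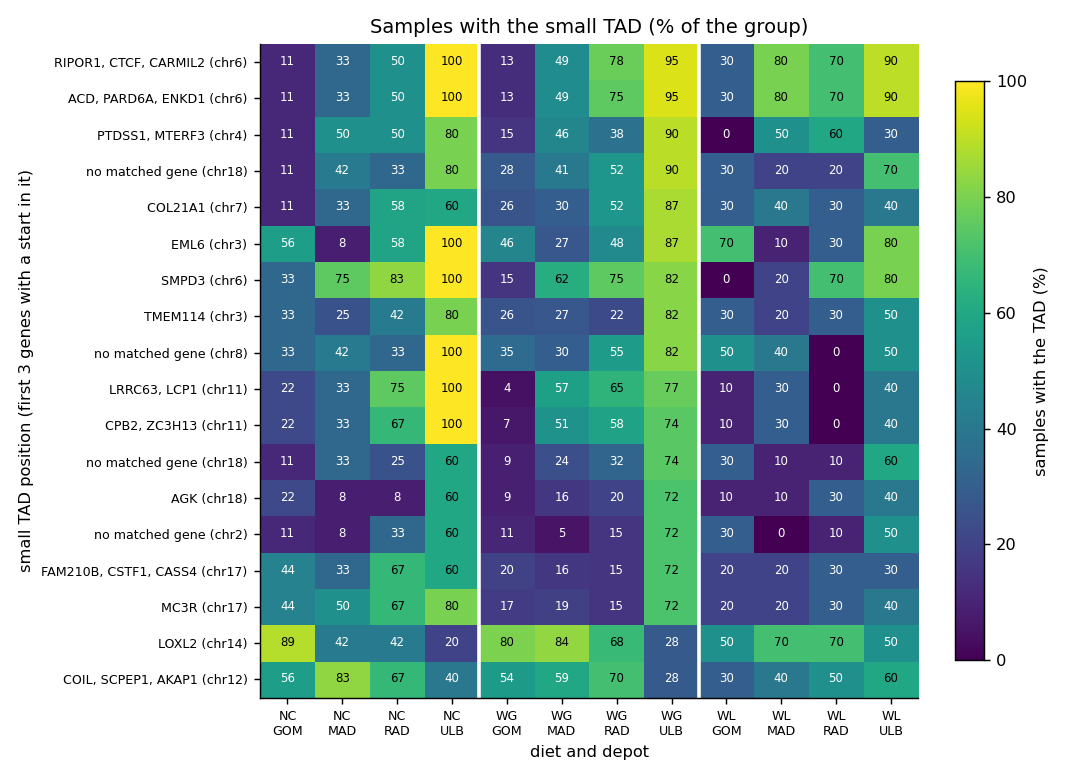
Share of samples (colour, % of the group) with small TAD positions called between ULB and a visceral depot of WG, up to 10 per comparison. Rows are named by up to 3 genes that start there, and columns are the 12 groups of diet and depot. Ends may shift by 1 bin, so a matching TAD may reach 240 kb. For the EML6 row, TADs of at most 200 kb alone were in 10 of 37 MAD and 12 of 39 ULB samples of WG. The RIPOR1 and CTCF row runs from 13.04% in WG GOM to 94.9% in WG ULB.

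Between diets, where the smaller group held 5 to 12 samples, 112 to 272 small positions per comparison had an unadjusted p below 0.05. By Fisher's exact test with adjustment, 1 small position was called, from WG to WL in RAD (background 0.00553%), at chr3:41660001-41780000 in 3 of 40 and 9 of 10 samples (Fisher's exact test, adjusted p = 0.0148). Of its bases, 58.3% are known in the reference, and 3 of its 6 bins lie mostly in an assembly gap, which no Hi-C read can cover. Its A-B index was about 0.00 in every group. The 7 other diet comparisons had 0 calls among small positions.

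EN1, the engrailed homeobox factor that patterns dorsal and ventral tissue, lay in a region called between ULB and each visceral depot of WG when each 20-kb bin was compared by whether it was in any small TAD. This comparison was chosen after the data were seen, and EN1 is a gene that the study names. Over the start of EN1 (chr15, 24408377, minus strand), a small TAD was found in 3 of 5, 28 of 39 and 8 of 10 ULB samples of NC, WG and WL. In visceral samples it was found in 0 of all groups, except 1 of 10 in WL RAD. In WG the TAD over EN1 had a median of 1090 kb in GOM (500 to 1720), 1160 kb in MAD (520 to 1720), 1020 kb in RAD (220 to 1640) and 120 kb in ULB (100 to 1060). Fisher's exact test over 21801, 22054 and 22720 bins gave adjusted p = 3.48e-11, 2.28e-09 and 7.14e-10 for ULB against GOM, MAD and RAD, where 0.936%, 0.608% and 0.317% of all bins were called. The called bins ran over chr15:23780001-24420000, on average in a small TAD in 77.5% of ULB samples. No motif match was found at the ends of the EN1 domain.

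EN1 expression was highest in ULB as well. In WG its level was 0 to 0.856 TPM in GOM (median 0.26), 0 to 1.08 in MAD (median 0.32), 1.87 to 8.25 in RAD (median 3.95) and 3.67 to 23.9 in ULB (median 12.8). RAD thus lay above GOM and MAD without overlap while 0 of its 40 Hi-C samples had the small TAD. ULB exceeded GOM by 5.55 on the log2 scale (SE 0.16, edgeR adjusted p = 4.69e-48), MAD by 5.07 (SE 0.18, adjusted p = 1.45e-38) and RAD by 1.65 (SE 0.10, adjusted p = 5.40e-24). The A-B index at EN1 in WG was -0.19 ± 0.45, 0.66 ± 0.51, 1.38 ± 0.50 and 2.05 ± 0.76 in GOM, MAD, RAD and ULB. In NC the medians of expression were 0.05, 0.31, 3.19 and 12.4 TPM, and in WL 0.26, 0.60, 4.55 and 16.2 TPM.

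**Figure D4:**
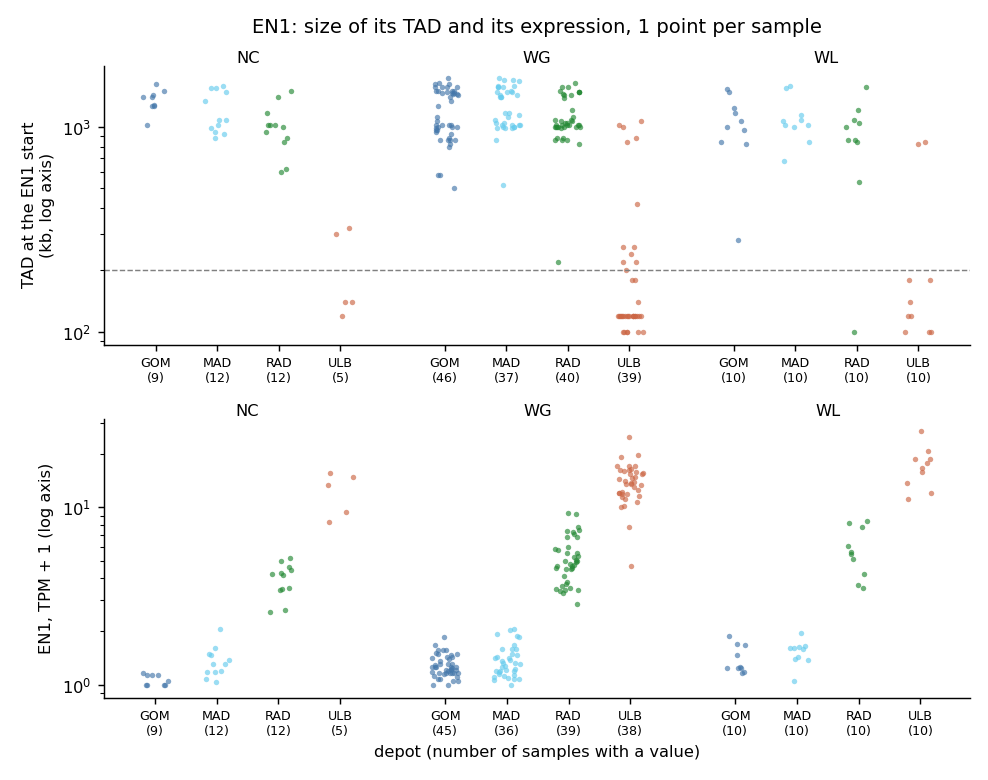
Size of the TAD over the start of EN1 (upper panel, kb, log axis) and EN1 expression (lower panel, TPM + 1, log axis), 1 point per sample, by depot and diet. In WG, the median TAD is 120 kb in ULB and 1020 to 1160 kb in the visceral depots, and median expression is 12.8 TPM in ULB and 3.95 TPM in RAD.

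BNC1, a zinc-finger factor of mesothelium and epithelium, was expressed mainly in GOM. In WG its start (chr7, 51651179, plus strand) was in a small TAD in 6 of 46 GOM, 23 of 37 MAD, 30 of 40 RAD and 15 of 39 ULB samples. Its expression was 1.21 to 24.9 TPM in GOM (median 8.33), with medians of 0.11 in MAD and 0 in RAD and ULB. It was lower in RAD than in GOM by 8.06 on the log2 scale (SE 0.31, edgeR adjusted p = 8.64e-40). Of the mesothelial marker list only WT1 was measured, and its median was also highest in GOM. Over the samples of all diets together, WT1 was at 12.9 to 182 TPM in GOM (median 43.2) and 1.997 to 28.9 in MAD (median 8.18). It was at 2.46 to 17.6 in RAD (median 6.69) and 0 to 23.8 in ULB (median 0.135). The part of mesothelial cells in the BNC1 difference was not tested. WT1 itself was in a small TAD in 0 samples. In NC, BNC1 was in a small TAD in 11.11%, 8.33%, 25% and 60% of GOM, MAD, RAD and ULB samples, with medians of 8.97, 0.33, 0.04 and 0.09 TPM. In WL the shares were 20%, 80%, 40% and 90%, with medians of 13.6, 0.06, 0 and 0 TPM.

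Genes of fat function were then looked up in recurrent small TADs. Of 13067 placed PCGs, 12.7% were in a small TAD in at least 70% of the samples of some group and 4.43% over all samples. Of the lipid storage and adipokine list 5 of 23 reached 70% in a group (LEP, DGAT1, PCK1, PLIN1 and FASN), of adipogenic regulators 1 of 20 (STAT5A), of depot patterning factors 3 of 31 (BNC1, EN1 and GATA5), of cytokines and chemokines 4 of 17, of extracellular matrix genes 3 of 18 (SPARC, COL1A2 and MMP14), of insulin and glucose genes 2 of 16 (INSR and IGFBP7) and of architectural proteins 3 of 11 (YY1, CTCF and CTCFL). As shares these were 21.7%, 5%, 9.68%, 23.5%, 16.7%, 12.5% and 27.3% in that order. Some thus lay above and some below the 12.7% of all placed PCGs. With lists this short a few genes decide the share, and these differences were not tested. Of the marker lists, 2 of 6 adipocyte, 2 of 5 macrophage, 1 of 3 endothelial and 0 of 5 lymphocyte genes reached it.

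LEP, which encodes the satiety hormone leptin, was in a small TAD in 90% of samples, from 8 of 10 in WL GOM to 12 of 12 in NC MAD, with group medians of 140 to 180 kb and an index of 1.69 to 3.23. Median expression was 75.0, 78.3, 129 and 249 TPM in GOM, MAD, RAD and ULB of NC and 375, 322, 547 and 595 TPM in WG. STAT5A, a transducer of growth hormone signals, had its start in a small TAD of any position in 98.3% of samples. The position chr12:20480001-20580000, at the 100-kb minimum, was present in 234 samples. CCL2, a chemokine that draws in monocytes, was in a small TAD in 82.5% of samples although its bin was in compartment B, with an index of -3.76 to -2.10, and its median expression in GOM, MAD, RAD and ULB of WG was 69.5, 90.8, 136 and 217 TPM. DGAT1, which catalyses the last step of triglyceride synthesis, was in a small TAD in 22 of 46 GOM, 31 of 37 MAD, 34 of 40 RAD and 37 of 39 ULB samples of WG, and in 10 of 10 ULB samples of WL. Its TAD had a median of 300 kb in WG GOM and of 160 kb in the other 3 depots, and its median expression was 7.69, 9.90, 9.97 and 10.3 TPM.

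Gene families were as uneven. Of 29 keratin genes, which encode filaments of epithelia, 18 were in a small TAD in at least 70% of all samples (62.1%, beside 4.43% of placed PCGs). All 16 of the cluster on chromosome 12 (starts from 21124605 to 21768053) were, while 2 of 13 on chromosome 5 were. Of these 16 keratin genes, 15 had a median below 0.5 TPM, and the mean index was -0.99. Since clustered genes share TADs, they are not independent. CCL and CXCL chemokines had 4 of 23 (17.4%) and ZNF genes 16 of 201 (7.96%), while of 32 HOX genes, which pattern the body axis, and of 8 PCDH genes, 0 reached 70% over all samples.

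The A-B index was higher inside small TADs than inside all larger ones in 240 of 240 samples. TADs and index come from the same Hi-C contacts. In WG RAD the means were 0.721 and -0.272, a difference of 0.993 ± 0.29 (n = 40), and in NC GOM 0.407 and -0.387, a difference of 0.793 ± 0.15 (n = 9). Exact two-sided sign tests passed in 11 of 12 groups (largest adjusted p = 0.00426). In NC ULB all 5 samples had the same direction, for which the smallest possible p of the exact test is 0.0625. The index was higher in small TADs on 12 to 18 chromosomes per sample (median 16). Between groups, the difference rose in RAD from 0.720 in NC to 0.993 in WG (exact rank-sum, adjusted p = 0.0344) and fell to 0.682 in WL (adjusted p = 0.0344), and in WG it was lower in ULB, at 0.835, than in RAD (adjusted p = 0.0477). That of ULB and RAD did not pass when samples of the same replicate number were paired, or under a limit of 160 kb. After quantile normalisation of the index, only the fall in RAD from WG to WL passed.

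The index did not fall steadily with TAD size. Over 5 size classes, the index was 0.616 ± 0.21 in small TADs, 0.767 ± 0.17 at 220 to 400 kb, 0.251 ± 0.18 at 420 to 600 kb, -0.680 ± 0.23 at 620 to 980 kb and -1.44 ± 0.28 at 1 Mb or more. Small TADs had the highest index in 43 of 240 samples, and in 92 when chromosomes were given equal weight, where the class of 220 to 400 kb had it in the other 148. In small TADs 59.7% ± 2.495 of bins were in compartment A, beside 62.5% in the next class, 27.99% in the largest and 48.2% of all bins. Gene density and GC content, which do not come from the contacts, were highest in small TADs in 240 of 240 samples. Density fell from 15.4 ± 0.76 genes per Mb to 12.5, 8.70, 5.23 and 3.05 over the classes, and GC content from 45.3% to 38.2%. Bins that were in a small TAD in at least 70% of WG ULB samples (2660 bins) had 22.2 genes per Mb, a GC content of 47.3%, a mean index of 1.601 and 70.9% in compartment A, against 6.19 genes per Mb, 40.7%, -0.26 and 45.3% for bins that never were.

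**Figure D5:**
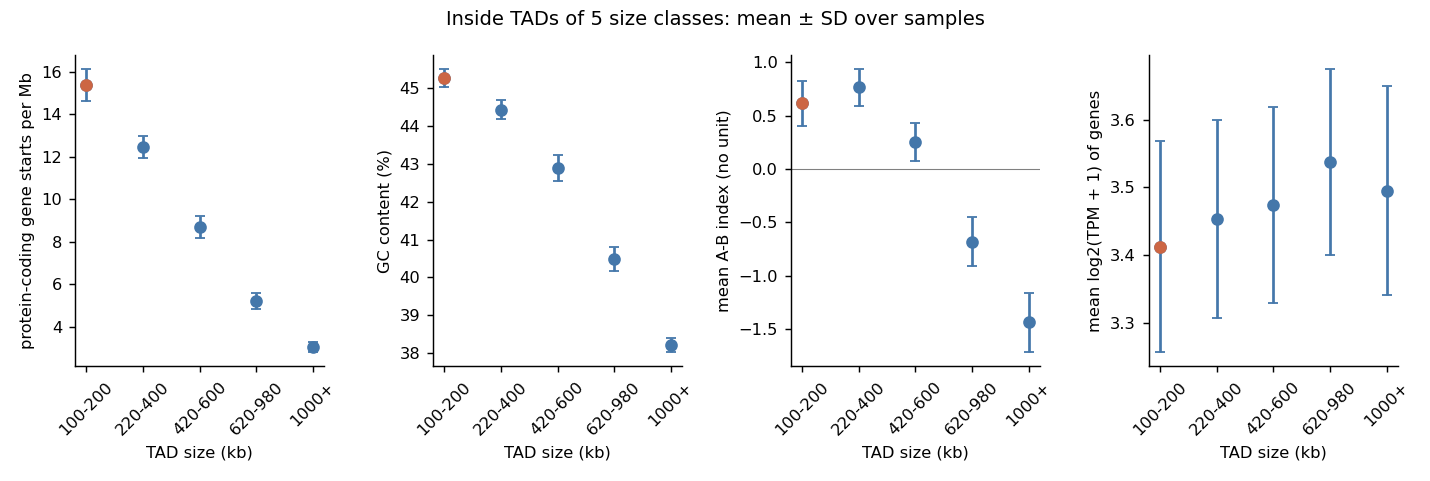
A-B index, gene density, expression and other features (vertical axes, with units) inside TADs of 5 size classes (horizontal axes, kb), mean ± SD over samples. Gene density falls from 15.4 to 3.05 per Mb with size, the index peaks at 0.767 in the class of 220 to 400 kb, and mean expression stays between 3.41 and 3.54 on the log2 scale.

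Expression per gene was compared next. Each RNA sample had 1027 to 2252 PCGs (median 1633) with their start in a small TAD of the matching Hi-C sample. Their mean expression on the log2(TPM + 1) scale, which understates differences of low genes, was below that of genes in larger TADs in 195 of 236 samples. The mean differences by group ran from -0.123 ± 0.08 (NC GOM, 3.23 against 3.35, n = 9) to -0.0435 ± 0.07 (WG ULB, 3.42 against 3.46, n = 38). Exact two-sided sign tests passed in 8 of 12 groups. By size class, the mean was 3.41 ± 0.16 in small TADs and 3.54 ± 0.14 at 620 to 980 kb, and 80.8% and 81.5% of genes were above 0.5 TPM. The direction depended on how genes were weighted. Among genes above 0.5 TPM, 104 samples were above 0 and 0 groups passed, and when chromosomes were given equal weight, 192 samples were above 0, with group means of 0.00931 to 0.123. Among bins of positive index, 226 of 236 samples were lower in small TADs and 11 groups passed.

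Boundaries and enhancers were the last features compared. Of the ends of small TADs, 28.9% ± 1.05 held a match to the CTCF core motif, beside 25.7% ± 0.54 of the ends of larger TADs and the 19.2% of all neighbouring bin pairs. The share was higher for small TADs in 240 of 240 samples. It was higher at more recurrent positions, from 19.4% of the ends of 4238 small positions found in 1 sample to 27.99% of 2597 positions in 10% to 30% of samples, 29.3% of 845 in 30% to 70% and 40% of the 175 in at least 70%. Matches that faced each other from both ends were found in 5.14% of the 175. Matches that faced away, as at the printed YY1 domain, were found in 2.29%. These shares were 4.14% and 2.13% at 30% to 70% of samples, and 2.62% and 2.96% at 10% to 30%. Over all small TADs of a sample they were 2.92% ± 0.46 and 2.57% ± 0.42. The printed LCP1 domain, found in 107 samples, is not among the 175. It had facing matches and a further plus-strand match at its right end. H3K27ac enhancer regions, which the authors called with ROSE on pooled reads of groups or subgroups, were densest in bins most often in small TADs. Over 18 tables, the median density was 9.16 per Mb in bins never in a small TAD, 10.2 and 13.3 in the classes under 30% and 30% to 70%, and 17.7 in bins at 70% or more, which were the densest in 18 of 18 tables. Super-enhancers ran from 0.386 to 1.11 per Mb in the same order. The tables come from pooled reads and share libraries of a depot, so they are not replicates.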

How the data were processed

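Hi-C libraries (MboI) were aligned and filtered by the authors with Juicer (mapping quality at least 30), balanced with the Knight-Ruiz method and quantile normalised between samples with BNBC. The authors called TADs with deDoc on 20-kb matrices of each sample and removed those under 100 kb. The deposited positions have no score. The deposited A-B index is a score without unit. The authors estimated expression with kallisto 0.43.0 and tximport (Ensembl release 102) and deposited expected counts and TPM. BWA 0.7.15 and SAMtools 1.3.1 are named in the submitters' processing notes. From the deposited ROSE tables of pooled H3K27ac reads, the authors' positions of enhancer regions and super-enhancer marks were used. In 3 tables, 9 columns match no label and were not used.

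TADs with end minus start of at most 200 kb were taken from 18 autosomes (Sscrofa11.1). The members and gene lists were chosen with earlier results of these data known, among them that backfat had more TADs. The named genes were those with a start in small positions called between ULB and a visceral depot in WG (up to 10 positions per comparison), in the 12 most frequent positions, list members in a small TAD in at least 70% of a group (up to 6 per list), and EN1, TCF21, WT1 and IRX3. BNC1, a list member, is described further for values seen. TCF21 was in a small TAD in 1 NC RAD and 1 WG ULB sample. PCGs were placed by matching symbols to RefSeq, which placed 13067 of 21280 genes, 14821 of them with a symbol.

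Numbers were compared by exact rank-sum tests, interactions by 100000 permutations, positions present in at least 10% of the compared samples by Fisher's exact test, and rounded counts of PCGs above 0.5 TPM in 80% of a group by edgeR 4.0.16 (TMM, quasi-likelihood, R 4.3.3) in 14 comparisons. P-values over samples assume separate pigs within a group. The study took 4 depots per pig. Deviations of same-numbered RNA samples correlated by over 0.1 in every pair in 4 of 18 depot comparisons, those of the Hi-C index in 0. In WG (RNA medians 0.606 to 0.68), 35 of 36, 37 of 39, 37 of 38, 30 of 31, 30 of 30 and 33 of 33 RNA pairs did so. Blocked outcomes for the number of small TADs and for the index therefore stand beside the calls they change. Valid contacts per sample, as the study lists them, served only as a covariate. Alternatives were other size limits, shares, contact terms, matching rules, frequency limits, a replicate block, left-out replicates, filters and DESeq2 1.42.0. Scripts were tested on simulated data. Python 3.11.15, numpy 2.4.6, pandas 2.3.3, scipy 1.17.1 and matplotlib 3.10.9 were used.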

Additional observations from a re-analysis of the deposited data

Results flagged for a closer look

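WL GOM replicate 9 had 576 small TADs, far below the next sample of its group at 912. The gap was 0.496 of the range of the group. It was the only value of this kind in 18 groups of values tested, of which chance flags about 1 in 20.

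The effect of diet on the number of small TADs differed between depots in 5 of 12 permutation tests. From NC to WG, the change in RAD was -120.1 relative to that in GOM (adjusted p = 0.03) and -165.4 relative to MAD (adjusted p = 0.00048). The change in ULB was -152.4 relative to GOM (adjusted p = 0.0409) and -197.8 relative to MAD (adjusted p = 0.00444). From WG to WL, the change in RAD was -149.7 relative to GOM (permutation test, adjusted p = 0.0143), and -203 without WL GOM replicate 9 (adjusted p = 0.00012).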

How the results depend on the processing

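Under a limit of 160 kb, RAD of WG exceeded GOM by 27.9 and MAD by 22.9 small TADs, no longer past the threshold. Under 240 kb, the difference of MAD and RAD in WL turned to 18.9. As a share of all TADs, RAD of WG exceeded GOM by 0.553 points and MAD by 0.442, and the diet differences were -0.105 from NC to WG and -0.0585 from WG to WL in GOM, which turned, and 0.541 in MAD from NC to WG, and none of these passed. With valid contacts as a term, WL GOM and RAD differed by -83.8, WL GOM and ULB by 108 and now past the threshold, and WL MAD and RAD by 23.5. The same term gave 92.9 in GOM from WG to WL (now past the threshold), -35.6 in MAD, -27.8 in RAD from NC to WG, -42.2 in RAD from WG to WL and -115 in ULB from NC to WG, the last 4 no longer past it, so that 2 in place of 5 diet comparisons passed, 1 of them the same. The differences of diet effects became -94.7 and -127 for GOM against RAD and ULB from NC to WG, no longer past the threshold, and -135 for GOM against MAD, now past it, and 5.34 for MAD against RAD from WG to WL, which turned. Without WL GOM replicate 9, chosen after seeing the data, the difference for GOM against MAD from WG to WL was -162, now past the threshold. Without 1 NC ULB replicate, the change to WG in ULB was -174 to -128, and it no longer passed without replicate 5. The number of diet comparisons past the threshold was then 4 to 5.

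The labels do not say that a replicate number marks a pig. Same-numbered Hi-C samples deviated together in every pair in 0 depot comparisons of the index, and RNA samples of the same names in 4, so the numbers may mark pigs. With the replicate number as a block, 6 depot comparisons passed in place of 14. The block gave 150.3, 365, 377 and 183 in NC for GOM to RAD, GOM to ULB, MAD to ULB and RAD to ULB, 42.4 and 38.8 in WG for GOM to RAD and MAD to RAD, and -101 and -102 in WL for GOM to MAD and GOM to RAD. For positions the block gave 52 calls between depots in place of 43, and in expression it changed no count by over 1.5 times.

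Called small positions numbered 44 in all, 7 with identical ends, 69 with ends within 2 bins, 5 at limits of 80% and 20%, and 34 with matching TADs of at most 200 kb. The test by bins gave 97 regions. The last 2 of these were chosen after seeing the data. For the index difference, quantile normalisation gave -0.0963 between WG RAD and ULB and 0.236 in RAD from NC to WG, and 160 kb and the block gave -0.133 and -0.127 between WG RAD and ULB, none past the threshold. Comparisons past the threshold numbered 1 after quantile normalisation and 5 with equal weight for chromosomes, in place of 3. For expression, 8 groups passed, 0 among genes above 0.5 TPM, 4 (with small TADs higher) with equal weight for chromosomes and 0 with weights within chromosomes. The lowest group mean was -0.0456 among genes above 0.5 TPM and 0.00931 with equal weight for chromosomes, the highest 0.123 with equal weight and 0.00238 with weights within chromosomes, and 44 in place of 195 samples were lower with equal weight. DEGs among recurrent genes numbered 559, and 869 without a filter on low genes. The cause of these changes was not tested. TADs under 100 kb and the depth of single calls set the limit of what could be seen.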

Other observations

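When each 20-kb bin was compared by whether it lay in any small TAD, a comparison chosen after seeing the data, further regions separated groups. Between NC MAD and NC RAD, chr9:64220001-64420000, with ATP2B4, a plasma membrane calcium pump, was in a small TAD in 0 of 12 and 11 of 12 samples (Fisher's exact test, adjusted p = 0.0202; 0.0475% of bins called). From NC to WG in ULB, 33 bins fell and 0 rose (0.142% of bins). They lay at chr3:21700001-22180000, with CACNG3, a calcium channel subunit, in 100% of NC and 4.70% of WG samples on average, and at chr3:22440001-22620000, with CHP2, ERN2, PLK1, DCTN5 and NDUFAB1, in 100% and 3.704%. Of the 5 genes tested there, 0 were DEGs by edgeR. These regions rest on 5 NC samples.

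GLI3, a transcription factor of hedgehog signalling, lay in a region, chr18:52260001-52700000, in small TADs in 86.9% of GOM, 26.7% of MAD and 18.4% of RAD samples of WG on average (bins called for GOM against MAD 0.288%, against RAD 0.489%). The bin of its start was in a small TAD in 41 of 46 GOM and 7 of 40 RAD samples (Fisher's exact test, adjusted p = 1.47e-08), and GLI3 expression was lower in RAD by 0.77 on the log2 scale (SE 0.30, edgeR adjusted p = 0.0387). In MAD, where that bin was in a small TAD in 10 of 37 samples, its expression differed from GOM by -0.43 (SE 0.29, adjusted p = 0.383). ANO2, a chloride channel, was in a small TAD in 36 of 46 GOM and 5 of 40 RAD samples, and its expression differed by 0.28 (SE 0.17, edgeR adjusted p = 0.225). DEGs in called bins went both ways. Between GOM and ULB of WG, 5 of 22 genes tested were DEGs, 1 higher and 4 lower where the small TAD was more frequent. Between GOM and RAD it was 3 of 18, 1 higher and 2 lower. Between MAD and ULB it was 4 of 11, and between RAD and ULB 1 of 3, all higher. Of all PCGs tested, 17.9%, 11.2%, 14.4% and 9.27% were DEGs in that order. EN1 was the higher gene between GOM and ULB, the DEG between RAD and ULB, and 1 of the 4 between MAD and ULB. The others of those 4, YKT6, AEBP1 and POLM, had the same counts, 11 of 37 MAD and 29 of 39 ULB samples, and are not independent. From WG to WL in RAD, where 0.135% of bins were called, regions without placed genes at chr5:93620001-93820000 and chr6:18400001-18500000 rose from 5% to 70% and from 7.5% to 80% of samples, and chr17:9340001-9500000 fell from 92.5% to 20%.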
